A study of Mus musculus with 17 samples.

Results

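Glucose and glycogen metabolism was represented by 54 listed genes of glucose transport, glycolysis, gluconeogenesis, glycogen turnover, the pentose phosphate and fructose pathways, insulin signalling and the pyruvate dehydrogenase complex. Genes were taken by their symbol. A probe carrying the gene's symbol was found for 38 of the 54, with 51 probes among the 20794 of the array, and 11 of the 38 genes had several probes. The other 16 are not analysed here: Gpi1, Slc2a1, Pfkfb1, Pfkfb3, Aldoc, Pgk1, Eno1, Pck1, G6pc, Gys1, Gys2, Gbe1, Phkb, G6pdx, Pgd and Irs2. They include the cytosolic phosphoenolpyruvate carboxykinase (Pck1), the catalytic subunit of glucose-6-phosphatase (G6pc) and the liver glycogen synthase (Gys2). Several control points of hepatic glucose output thus have no value here. Probes with several symbols were left out, and 12771 of the 20794 probes had a single symbol. Probes of these genes without a symbol or under another one were not looked for.

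Liver RNA of single mice with a knockout of Afp, which encodes alpha-fetoprotein, the main plasma protein of the fetus, was compared with pooled wild-type liver RNA on 2-colour cDNA arrays. The adult mutants were 6 males of 17 weeks, measured on 11 arrays against a pool of 6 wild-type males of the same age, and 5 of them had 1 array in each dye orientation. The fetal mutants were 6 embryos, 3 females and 3 males, with 1 array each, the mutant always in Cy5, against a pool of 4 wild-type animals that is labelled female on 4 arrays and male on 2. The labels write the genotype as AFP1 kO and give no allele, zygosity or strain here. They give the embryos' age as day 7.5, which precedes the liver in mouse development and is not taken as the age. No wild-type animal was measured alone, so every error below covers the mutant animals only and leaves out the spread among wild types.

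The liver takes up glucose after a meal and stores it as glycogen, and in fasting it releases glucose made from glycogen and from lactate, amino acids and glycerol. Glycolysis and gluconeogenesis run through the same reversible enzymes and differ at a few one-way steps, where separate enzymes such as phosphofructokinase and fructose-1,6-bisphosphatase oppose each other. Insulin favours uptake and storage, glucagon favours release, and the pyruvate dehydrogenase complex commits pyruvate to oxidation.

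Each value is the log2 ratio of mutant over wild-type pool, so a positive value means more signal in the mutant, and a gene with several probes is their mean. Arrays with the mutant in Cy3 were used in the direction deposited, which is likely but not stated, so the main adult counts are also given with those arrays turned in sign. Arrays held 20078 to 20697 values. The targeted gene was low in the embryos, with Afp at -8.40 ± 0.23 (SD, n = 6, adjusted p = 1.25e-08), and near 0 in the adults, at -0.03 ± 0.19 (SD, n = 6, adjusted p = 0.944). A ratio gives no level, so the tissue could not be checked by the presence of hepatocyte transcripts, and genes could not be ranked by abundance. In bulk liver RNA, fewer cells of a type and less RNA per cell cannot be told apart.

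None of the glucose genes passed the test at either age. In adults, limma called 0 of 38 at an adjusted p under 0.05, where it called 0% of all 17039 features. In embryos it called 0 of 36, beside 0.151% of 17242 features. The genes sat close to the pool on average: their median log2 ratio was -0.09 in adults, beside 0.01 over all features tested, and 0.02 in embryos, beside 0.00. Adult means were below 0 for 25 of 38 genes, or 65.8%, against 48.1% of all features, and fetal means for 17 of 36, or 47.2%, against 49%. With the Cy3 arrays turned in sign, 23 of 38 adult means were below 0, or 60.5%, against 60.9% of features, so the adult excess below 0 depends on the direction taken. In that direction limma called 2 genes, both higher, or 5.26% against 9.41% of features: Pcx at 0.67 and Pck2 at 0.69 (adjusted p = 0.0141 and 0.0184).

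**Figure D1:**
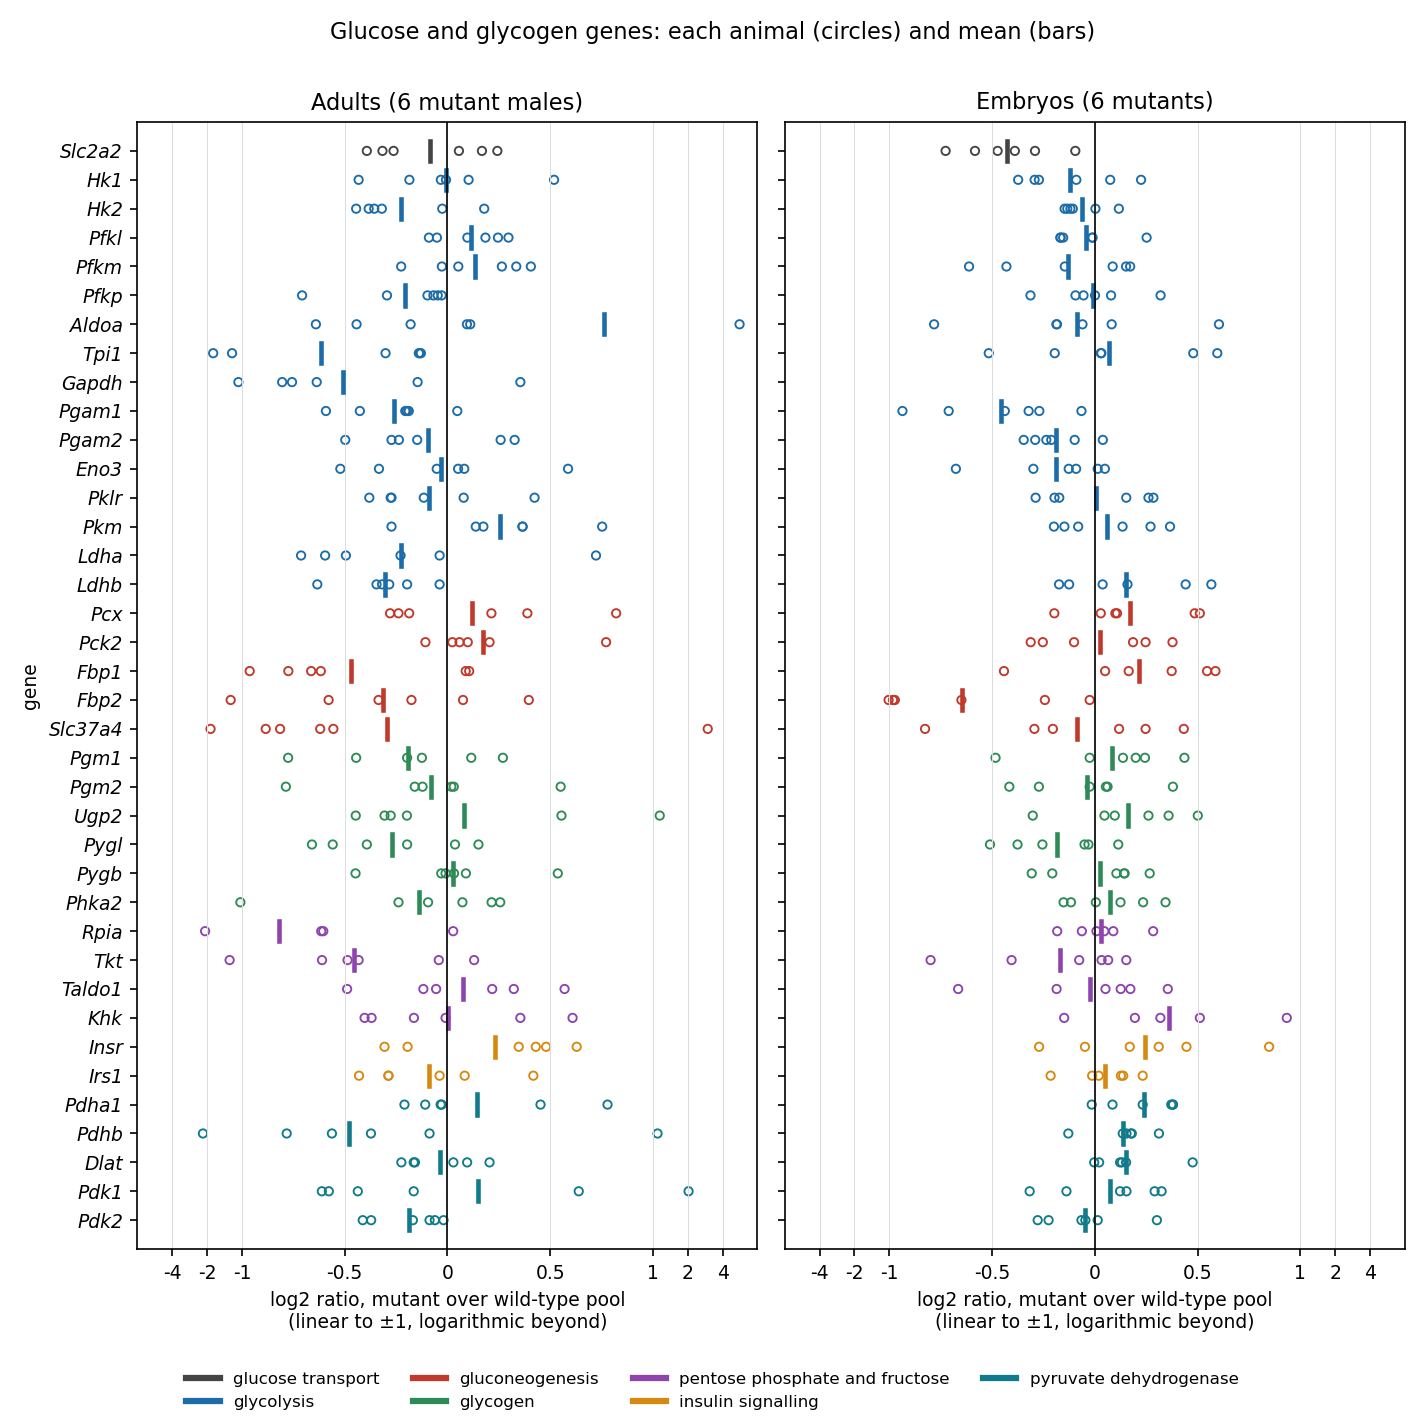
Log2 ratio of mutant over wild-type pool for each of the 38 genes with a probe, coloured by pathway, in 6 adult mutants and 6 mutant embryos. Circles are animals and bars are means; the horizontal axis is linear to 1 on either side of 0 and logarithmic beyond. Gapdh and Ldha have no fetal value. Adult circles scatter more widely than fetal ones for Aldoa, Slc37a4, Pdhb and Pdk1, and the 6 fetal circles of Slc2a2, Fbp2 and Pgam1 all lie below 0.

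At an unadjusted p under 0.05 the adults had 6 of 38 genes, 15.8% against 7.71% of all features, and all 6 were lower, against 4.35% of features, with 0 higher, against 3.36%. These were Ldhb, Fbp1, Gapdh, Tkt, Tpi1 and Pgam1, each with an adjusted p of 0.639 or 0.643. With the Cy3 arrays turned in sign, Ldhb alone of the 6 had an unadjusted p under 0.05, at -0.29 (p = 0.0384, adjusted p = 0.152, limma). The others came to -0.04 for Fbp1, -0.13 for Gapdh, -0.29 for Tkt, -0.24 for Tpi1 and -0.01 for Pgam1 (limma p = 0.852, 0.302, 0.244, 0.358 and 0.954). Ldhb averaged -0.49 on Cy5 arrays and -0.01 on Cy3 arrays, so turning the Cy3 arrays could change its mean little. If the deposited direction is right, its turned p reads the dye and is no second test of the mutant. With the Cy3 arrays turned, 7 of 38 genes were lower at an unadjusted p under 0.05, 18.4% against 12.6% of features, and 7 were higher, 18.4% against 16.4%. Genes below 0 in every animal numbered 4 of 38, or 10.5%, against 2.9% of features, and genes above 0 in every animal numbered 0, against 3.43%. Turned in sign, 3 genes were below 0 in every animal, 7.89% against 7.4%, and 4 above, 10.5% against 12.3%. The 4 below 0 as deposited were Pfkp, Tpi1, Ldhb and Pdk2, a group picked after the values were seen. On Cy3 arrays Pfkp averaged 0.08, Tpi1 -0.54 and Pdk2 0.10, against -0.36, -0.36 and -0.39 on Cy5 arrays.

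Glycolysis had 15 genes with a probe, and 11 of their adult means were below 0, with a median of -0.09. Gapdh, which oxidises glyceraldehyde 3-phosphate and is a common reference transcript, gave -0.51 ± 0.52 (SD, n = 6, adjusted p = 0.639). In animals 1 to 6 it stood at 0.36, -0.14, -0.80, -1.07, -0.64 and -0.76. Animal 1 alone was above 0, and the other 5 were below it. Its repeat hybridisations lay close together: the arrays of an animal in opposite dye orientation had the same sign in 5 of 5 animals and differed by a median of 0.06. Gapdh was the only one of 36 genes with all 5 pairs to keep its sign in each, 2.78% against 1.59% of features. Over all features the median gap between such arrays was 0.58, and over the glucose genes it was 0.60. With the arrays that carried the mutant in Cy3 turned in sign, Gapdh came to -0.13, so its adult value depends on the direction taken for those arrays.

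Triosephosphate isomerase (Tpi1), which interconverts the triose phosphates made by aldolase, averaged -0.62 ± 0.71 (SD, n = 6, adjusted p = 0.639). Its values were -0.14, -1.22, -1.77, -0.13, -0.13 and -0.30, so animals 2 and 3 carried most of the mean. Its probes differed: the first averaged -1.28 over the 5 animals it measured, and the second -0.14 over 6. Phosphoglycerate mutase 1 (Pgam1) averaged -0.26 ± 0.22 (SD, n = 6, adjusted p = 0.643), with -0.59 in animal 3 as the lowest and 0.05 in animal 2 as the highest.

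Lactate dehydrogenase interconverts pyruvate and lactate and is built from A and B subunits. Its B subunit gene, Ldhb, averaged -0.30 ± 0.20 (SD, n = 6, adjusted p = 0.639), with -0.20, -0.32, -0.28, -0.04, -0.63 and -0.34 in animals 1 to 6, below 0 in each. Ldhb read -0.49 on Cy5 arrays and -0.01 on Cy3 arrays, with the same sign on both in 2 of 5 animals. The A subunit gene, Ldha, the main form in liver, averaged -0.22 ± 0.53 (SD, n = 6, adjusted p = 0.737). Its animals stood at 0.72, -0.04, -0.60, -0.71, -0.23 and -0.49, with animal 1 alone above 0, and turned in sign its mean was 0.05. Ldha was not among the genes chosen for naming by rule and was added after the values were seen.

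The remaining adult glycolytic means included -0.22 for Hk2, a hexokinase, and 0.11, 0.13 and -0.21 for the phosphofructokinase subunits Pfkl, Pfkm and Pfkp. Pyruvate kinase stood at -0.09 for Pklr, the liver and red cell gene, and at 0.25 for Pkm, the muscle type. Aldolase A (Aldoa) had the highest mean, 0.76 ± 2.40, and rested on 1 value of 17.38 from 1 of its 3 probes in animal 6, with the other 2 probes at -0.21 and -0.05. None of these had an unadjusted p under 0.05.

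**Figure D2:**
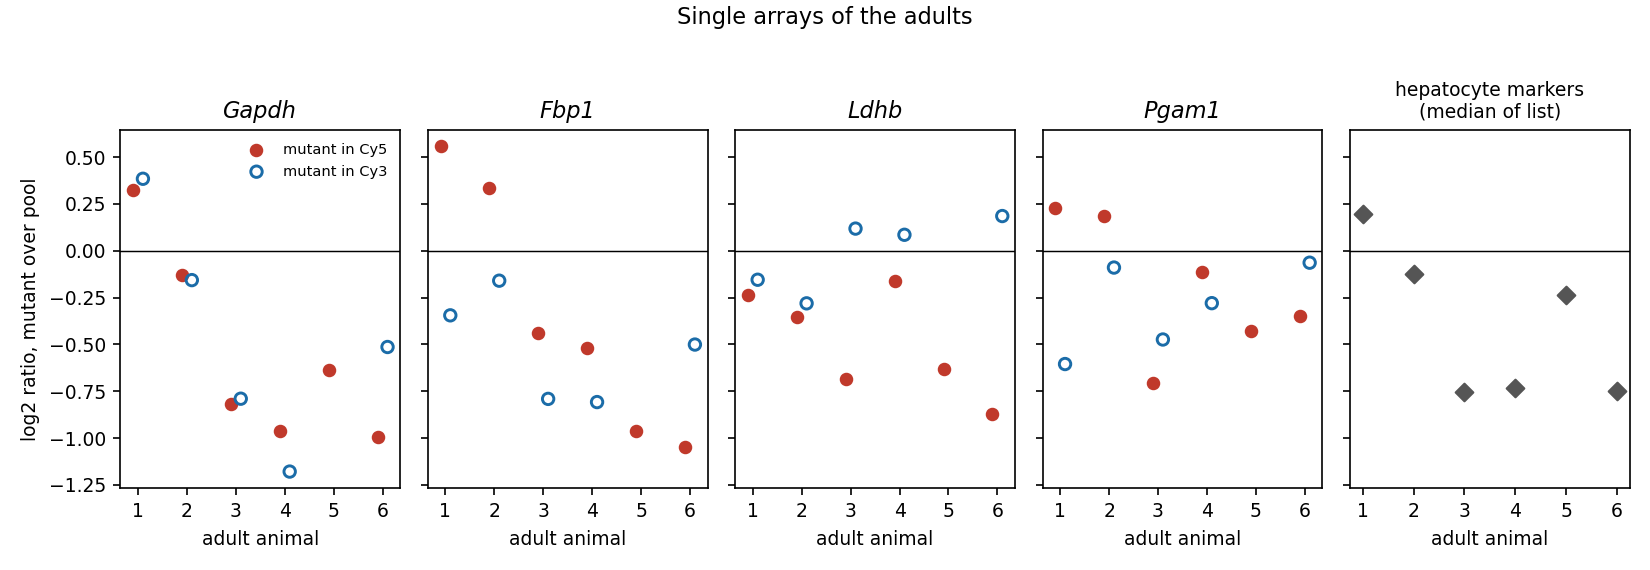
Log2 ratio of mutant over pool on every adult array for Gapdh, Fbp1, Ldhb and Pgam1, and the median over hepatocyte markers per animal. Filled red points are arrays with the mutant in Cy5, open blue points arrays with the mutant in Cy3, and diamonds the medians of the marker list. Animal 5 has a Cy5 array only. The Gapdh points of an animal nearly coincide in animals 1 to 3, and both Gapdh and the marker median are above 0 in animal 1 alone. The animal means of Fbp1 are above 0 in animals 1 and 2, those of Pgam1 in animal 2 alone and those of Ldhb in no animal.

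Gluconeogenesis had 5 genes with a probe, 3 of them below 0 in adults. Fructose-1,6-bisphosphatase of the liver (Fbp1), which removes a phosphate in the step that opposes phosphofructokinase, averaged -0.47 ± 0.46 (SD, n = 6, adjusted p = 0.639). Animals 1 and 2 stood at 0.11 and 0.09, and animals 3 to 6 at -0.62, -0.66, -0.96 and -0.77. With the Cy3 arrays turned in sign, animals 1 to 4 stood at 0.45, 0.25, 0.18 and 0.14, animals 5 and 6 at -0.96 and -0.27, and the mean was -0.04 (limma p = 0.852). The muscle enzyme gene Fbp2 averaged -0.31 ± 0.57 (SD, n = 6, adjusted p = 0.687), and its probes differed, with -0.59 for a probe below 0 in 6 of 6 animals and -0.03 for the other. The glucose-6-phosphate transporter gene Slc37a4, which feeds glucose-6-phosphatase, averaged -0.29 ± 1.67 (SD, n = 6), with -1.87 in animal 3 and 2.98 in animal 6.

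Pyruvate carboxylase (Pcx) and the mitochondrial phosphoenolpyruvate carboxykinase (Pck2) start gluconeogenesis from pyruvate. They averaged 0.12 ± 0.44 and 0.18 ± 0.31 (SD, n = 6 each, adjusted p = 0.828 and 0.711). Both depended on the dye. Pcx stood at 0.65 with the mutant in Cy5 and at -0.66 with the mutant in Cy3, and Pck2 at 0.74 and -0.62. Their adult means are thus averages of opposite readings, and animal 5, which had a Cy5 array only, gave the highest value of both genes, 0.82 and 0.77.

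Hepatocyte transcripts were read in the same adults. Of 11 hepatocyte markers, 10 had adult means below 0, against 48.1% of all features, with a median of -0.45, and 0 passed the test. Adult means of this and the other marker lists are given in the deposited direction only, so their dependence on that direction is not shown. Their median was 0.20 in animal 1 and -0.12, -0.75, -0.73, -0.24 and -0.75 in animals 2 to 6. Tat, which degrades tyrosine, had the smallest p among them, at -0.89 ± 0.44 (SD, n = 6, adjusted p = 0.639). Whether a difference in hepatocyte RNA share had a part in the glucose genes' adult values was not tested.

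Among the 6 adult glycogen genes, 4 had means below 0, and the median was -0.11. Liver glycogen phosphorylase (Pygl), which releases glucose 1-phosphate from glycogen, averaged -0.27 ± 0.32 (SD, n = 6, adjusted p = 0.652), from -0.66 in animal 3 to 0.15 in animal 2. Phosphoglucomutase (Pgm1) stood at -0.19 ± 0.38, and Phka2, the regulatory alpha subunit of liver phosphorylase kinase, at -0.14 ± 0.48 (SD, n = 6 each). UDP-glucose pyrophosphorylase (Ugp2), which makes the glucose donor for glycogen, averaged 0.08 ± 0.63, with 1.14 in animal 5. The spread between animals exceeded the mean in each of these 4 genes.

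In the pentose phosphate pathway, the nonoxidative branch was measured. Transketolase (Tkt), which moves carbon units between sugar phosphates, averaged -0.45 ± 0.49 (SD, n = 6, adjusted p = 0.639), with -0.61, -0.49, -0.04, 0.13, -1.28 and -0.43 in animals 1 to 6. Ribose-5-phosphate isomerase (Rpia) averaged -0.82 ± 0.89 over the 4 animals with a value (adjusted p = 0.644), and animal 3 alone reached -2.08. That value came from 1 array, with the mutant in Cy3, and with the Cy3 arrays turned in sign the Rpia mean was 0.37. Transaldolase (Taldo1) averaged 0.08 ± 0.37, and ketohexokinase (Khk), the first enzyme of fructose use, 0.00 ± 0.41 (SD, n = 6 each). The insulin receptor (Insr) averaged 0.23 ± 0.39 (adjusted p = 0.686) and its substrate Irs1 -0.09 ± 0.31 (SD, n = 6 each, adjusted p = 0.837). The hepatocyte glucose transporter Slc2a2 averaged -0.08 ± 0.27 (SD, n = 6, adjusted p = 0.836), with 3 animals on either side of 0.

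Of the pyruvate dehydrogenase genes, the E1 subunits Pdha1 and Pdhb averaged 0.14 ± 0.39 and -0.48 ± 1.06, and the E2 subunit Dlat -0.04 ± 0.17 (SD, n = 6 each). Pdk2, a kinase that inhibits the complex, averaged -0.19 ± 0.17 (SD, n = 6, adjusted p = 0.655) and lay below 0 in all 6 animals, between -0.41 and -0.02. It depended on the dye, at -0.39 on Cy5 arrays and 0.10 on Cy3 arrays, with the same sign on both in 1 of 5 animals. The wide spread of Pdhb came from 1 of its 3 probes, which stood at -4.25 in animal 4 and 2.89 in animal 5.

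Adult readings depended on the dye orientation. Over the 38 genes the median was -0.23 with the mutant in Cy5 and -0.12 with the mutant in Cy3. Over all features it was -0.06 and 0.07. In each orientation 24 of the glucose genes were below 0. They were not the same genes: 12 were below 0 in both, 2 above 0 in both and 24 of opposite sign. These counts were not taken over all features. The dye profile was taken as the difference between Cy5 and Cy3 arrays of an animal divided by 2. It is the same quantity as that animal's turned value. Its median size was 0.24 for these genes, beside 0.18 for their adult means. Over all features the sizes were 0.23 and 0.13. Dlat and Pgam2 had opposite signs on the arrays of all 5 animals with both, 5.56% of genes against 12.7% of features.

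**Figure D3:**
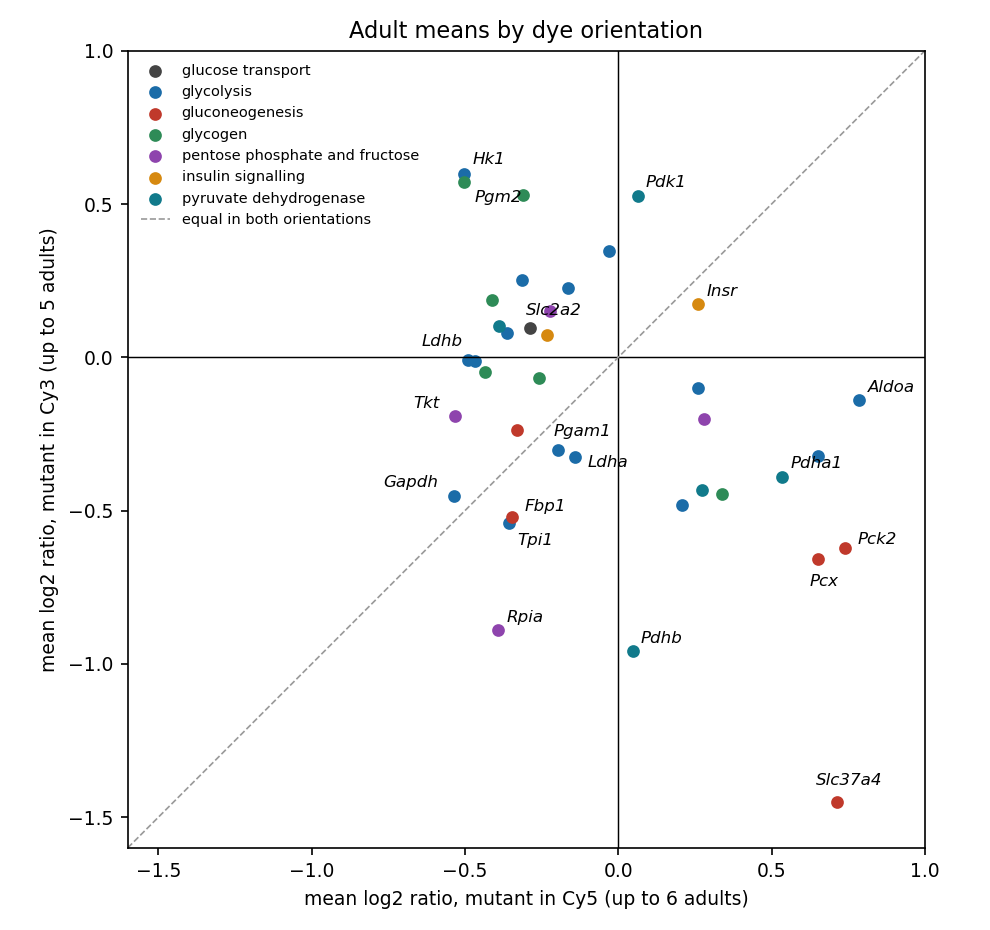
Mean log2 ratio of each glucose gene over adult arrays with the mutant in Cy5 (horizontal axis) and over those with the mutant in Cy3 (vertical axis), coloured by pathway. The dashed line marks equal values. Gapdh, Fbp1, Tpi1 and Rpia lie in the lower left quadrant, below 0 in both orientations, and Pck2, Pcx and Pdha1 in the lower right, with opposite signs.

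In embryos, at an unadjusted p under 0.05 there were 5 of 36 genes, 13.9% against 20.8% of all features. Slc2a2, Fbp2, Pgam1 and Pgam2 were lower, 11.1% of genes against 9.88% of features, and Pdha1 was higher, 2.78% against 10.9%. Genes below 0 in all 6 embryos numbered 3, or 8.33% against 7.5% of features, and genes above 0 in all 6 numbered 0, against 8.27%.

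Slc2a2 encodes GLUT2, the low-affinity glucose transporter of hepatocytes, which rodent pancreatic beta cells also use. It stood at -0.29, -0.58, -0.47, -0.10, -0.39 and -0.73 in embryos 1 to 6, below 0 in each. The mean was -0.43 ± 0.22 (SD, n = 6, adjusted p = 0.0891). With the adult dye profile subtracted it came to -0.18 (adjusted p = 0.170), since Slc2a2 was also lower on adult Cy5 arrays, at -0.29, than on Cy3 arrays, at 0.10. That profile was -0.24 ± 0.45 (SD, n = 5) and rested largely on animal 2, at -1.39 in Cy5 and 0.61 in Cy3. Animal 6 went the other way, at 0.36 and -0.03.

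Fbp2, the fructose-1,6-bisphosphatase of muscle, had the lowest fetal mean, -0.65 ± 0.43 (SD, n = 6, adjusted p = 0.0932). Embryos 1 to 6 stood at -1.01, -0.24, -0.98, -0.65, -0.97 and -0.02. One probe was below 0 in 6 of 6 embryos, between -1.24 and -0.14, and the other in 4 of 6, between -1.80 and 0.72. Pgam1 averaged -0.46 ± 0.32 (SD, n = 6, adjusted p = 0.110), with -0.71, -0.94, -0.27, -0.44, -0.06 and -0.32 in embryos 1 to 6. With the adult dye profile subtracted, Fbp2 came to -0.63 and Pgam1 to -0.53 (adjusted p = 0.0182 and 0.0136), a test that leaves out the error of the profile itself. In that test 14 of 36 glucose genes passed, and 4986 features in all, so passing it sets neither gene apart. With the fetal rows named as deposited, without the shift by 11 rows, Slc2a2 gave -0.10, Fbp2 0.16 and Pgam1 -0.09, so the fetal values rest on that shift.

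The promoters of Slc2a2, Fbp2 and Pgam1 are shown because they are the 3 of the 36 genes tested that were below 0 in every embryo. Each window holds 250 bases before and 50 after the RefSeq start of GRCm38.p6, read 5′ to 3′ on the gene's strand. Slc2a2 lies at chr3:28697653-28697952 on the plus strand, Fbp2 at chr13:62858351-62858650 on the minus strand and Pgam1 at chr19:41911621-41911920 on the plus strand. Capitals mark exact matches on either strand to the TATA box (letters TATAAA), the CCAAT box, the GC box (letters GGGCGG), the E-box (letters CACGTG) or the core of the NRF1 site (letters GCATGCGC).
Slc2a2: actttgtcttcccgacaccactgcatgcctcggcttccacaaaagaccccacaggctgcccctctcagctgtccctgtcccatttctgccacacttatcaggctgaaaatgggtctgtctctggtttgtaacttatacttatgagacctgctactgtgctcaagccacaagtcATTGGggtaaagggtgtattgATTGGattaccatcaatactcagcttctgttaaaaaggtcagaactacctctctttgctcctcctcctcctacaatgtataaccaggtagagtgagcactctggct
Fbp2: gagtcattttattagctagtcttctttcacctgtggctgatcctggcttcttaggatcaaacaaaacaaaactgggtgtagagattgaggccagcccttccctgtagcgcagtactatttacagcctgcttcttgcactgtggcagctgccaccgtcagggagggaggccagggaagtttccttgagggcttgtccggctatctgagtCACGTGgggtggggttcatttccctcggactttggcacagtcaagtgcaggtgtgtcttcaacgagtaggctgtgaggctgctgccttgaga
Pgam1: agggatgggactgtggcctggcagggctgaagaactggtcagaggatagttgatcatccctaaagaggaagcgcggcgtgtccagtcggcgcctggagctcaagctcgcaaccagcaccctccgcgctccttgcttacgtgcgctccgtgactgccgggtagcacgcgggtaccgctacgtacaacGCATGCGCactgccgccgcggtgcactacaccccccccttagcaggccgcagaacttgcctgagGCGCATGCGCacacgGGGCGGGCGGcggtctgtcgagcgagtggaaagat
In Slc2a2 the capitals are 2 CCAAT boxes on the reverse strand. In Fbp2 they are 1 E-box, which reads alike on both strands. In Pgam1 they are 3 matches to the NRF1 core, 2 of them overlapping on opposite strands, and 2 overlapping GC boxes. Of 32851 RefSeq promoters, 37.4% held a CCAAT box, 7.15% this E-box, 2.71% the NRF1 core, 35.7% a GC box and 13.6% a TATA box. Of the 37 glucose genes with a promoter in the table, 18, 7, 2, 25 and 3 held them in that order. A gene was counted if any of its promoters matched, while the shares above are per promoter, so the figures are not in like units. The 3 windows share no motif of this set, and their GC contents were 48.0%, 52.7% and 65.0%, beside a median of 52.7% over all promoters.

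The other fetal glycolytic genes were closer to 0. The muscle mutase gene Pgam2 averaged -0.19 ± 0.14 (SD, n = 6, adjusted p = 0.199), below 0 in 5 of 6 embryos, and the muscle enolase gene Eno3 averaged -0.19 ± 0.27 (adjusted p = 0.344). The Pgam2 mean came from 1 probe at -0.42, below 0 in all 6 embryos, while the other stood at 0.04. Ldhb averaged 0.15 ± 0.30 (SD, n = 6), above 0 in 4 of 6. Over 13 glycolytic genes the median was -0.06, with 9 below 0. Gapdh and Ldha have no fetal value here, because their probes lie in the last rows of the table, where the naming of the fetal rows could not be settled.

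Fetal gluconeogenic, glycogen and pentose genes were scattered around 0. Fbp1 averaged 0.21 ± 0.38 (SD, n = 6, adjusted p = 0.412), above 0 in 5 of 6 embryos, where 4 of 6 adults were below 0. Pcx averaged 0.17 ± 0.28 and Pck2 0.02 ± 0.29 (SD, n = 6 each). Pygl averaged -0.18 ± 0.24 (adjusted p = 0.315), Ugp2 0.16 ± 0.28 (adjusted p = 0.432) and Phka2 0.07 ± 0.20 (adjusted p = 0.653), over 6 embryos each. Khk averaged 0.36 ± 0.40 over 5 embryos (adjusted p = 0.245), from -0.15 in embryo 1 to 0.93 in embryo 5. Tkt averaged -0.17 ± 0.36 (adjusted p = 0.488) and Rpia 0.03 ± 0.16 (adjusted p = 0.844).

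Insr averaged 0.24 ± 0.39 (SD, n = 6, adjusted p = 0.361) and Irs1 0.05 ± 0.16 (adjusted p = 0.746). The pyruvate dehydrogenase genes were mostly above 0, with 4 of 5 means positive. Pdha1 averaged 0.24 ± 0.17 (SD, n = 6, adjusted p = 0.155), with 0.23, 0.38, 0.38, 0.09, 0.37 and -0.02 in embryos 1 to 6. Dlat averaged 0.15 ± 0.17 (adjusted p = 0.324) and Pdhb 0.14 ± 0.14 (adjusted p = 0.326). Pdha1 read 0.53 on adult Cy5 arrays and -0.39 on Cy3 arrays, and with the dye profile subtracted its fetal value came to -0.23. Dlat read 0.27 and -0.43 on those arrays. With the profile subtracted, Dlat came to -0.22, Pdhb to -0.01 and Pdk2 to 0.19, each changed in sign. Pdk1 stayed above 0, at 0.07 before and 0.37 after. Every fetal array had the mutant in Cy5, so a dye effect in embryos was not measured, and whether the adult profile holds there was not tested. The Dlat probes averaged 0.30 and 0.00 in embryos.

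Of 7 exocrine pancreas markers tested in the same embryos, 5 were below 0 and 2 passed, where 0.151% of all features passed. The 2 were Cela2a at -1.30 ± 0.46 and Cpa1 at -1.17 ± 0.43 (SD, n = 6 each, adjusted p = 0.0467 for both), and the embryos' medians ran from -0.73 to -0.39. Erythroid markers were below 0 for 5 of 5 genes, with a median of -0.13, and hepatocyte markers for 3 of 10, with a median of 0.15. Skeletal muscle markers were below 0 for 4 of 10, with a median of 0.05. The part of other tissues or cell types in the glucose genes' fetal values was not tested.

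Adults and embryos were compared on arrays with the mutant in Cy5, the orientation both ages share. Of 35 genes tested, 0 passed at an adjusted p under 0.05, beside 0.141% of 16314 features. At an unadjusted p under 0.05 there were 11, or 31.4%, against 20.2% of features, with 6 lower in adults, 17.1% against 9.24%, and 5 higher, 14.3% against 11%. The groups did not overlap for 0 genes in either direction, against 1.14% of features higher and 1.15% lower in adults. The difference was below 0 for 18 of 35 genes, or 51.4%, against 52.3% of features, and its median was -0.01, beside -0.02 over all features.

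Pck2 had the smallest p. Its adult Cy5 arrays averaged 0.74 ± 0.32, between 0.32 and 1.15, against 0.02 ± 0.29 in embryos, between -0.31 and 0.38 (SD, n = 6 each), a difference of 0.71 (adjusted p = 0.0781). Ldhb averaged -0.49 ± 0.28 in adults, against 0.15 ± 0.30 in embryos (SD, n = 6 each), a difference of -0.64 (adjusted p = 0.0878). Pcx averaged 0.65 ± 0.12 in adults, against 0.17 ± 0.28 in embryos (SD, n = 6 each), a difference of 0.48 (adjusted p = 0.107). In all 3 genes the groups nearly separated but overlapped. Taken over both dyes in the adults, the differences were 0.15 for Pck2, -0.45 for Ldhb and -0.05 for Pcx. The embryos were still read in Cy5 only there, so a dye effect shared by the ages does not cancel in these values. They cannot show whether the Cy5 differences of Pck2 and Pcx hold apart from the dye. Quantile normalization brought Pck2 past the threshold, at 0.72 (adjusted p = 0.0478), where 332 features passed in all. Without adult 1 the difference passed for Pck2, Ldhb and Pkm, at 0.78, -0.69 and 0.72 (adjusted p = 0.0271, 0.0408 and 0.0213). There 1224 features passed in all.

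**Figure D4:**
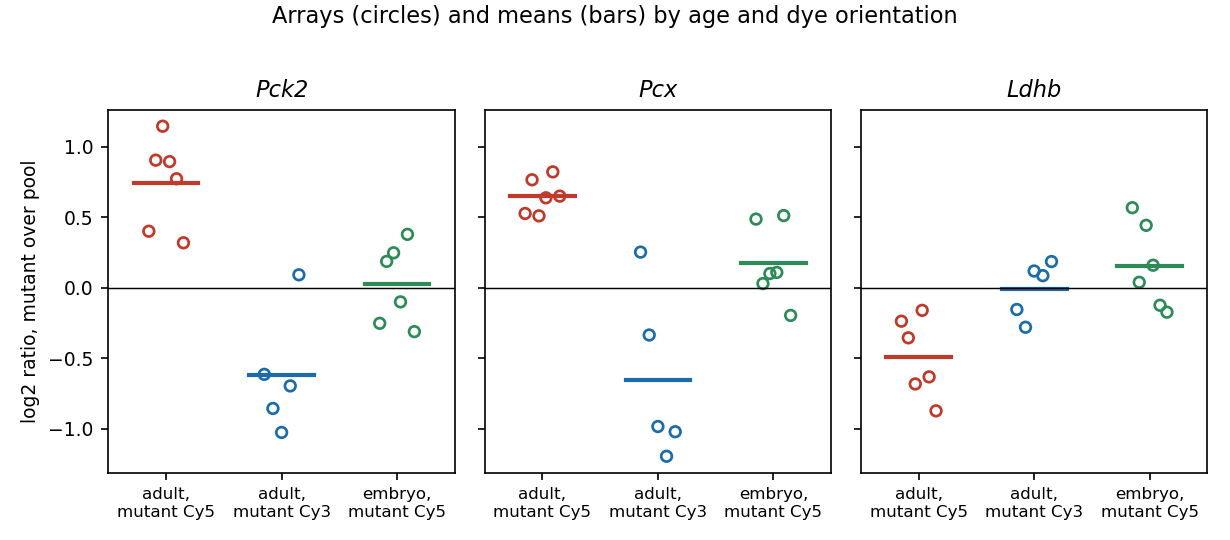
Log2 ratio of mutant over pool for Pck2, Pcx and Ldhb on adult arrays with the mutant in Cy5 (red), adult arrays with the mutant in Cy3 (blue) and fetal arrays with the mutant in Cy5 (green). Circles are arrays and bars are means. Pck2 and Pcx read above 0 on every adult Cy5 array and below 0 on 4 of 5 adult Cy3 arrays, while Ldhb reads below 0 on every adult Cy5 array and near 0 on Cy3 arrays.

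Female and male embryos were compared within the fetal arrays, 3 against 3. The pool is labelled female for all 3 females and for 1 of the 3 males, so embryo sex and pool label cannot be fully told apart. Of 36 genes, 0 passed at an adjusted p under 0.05, beside 0.0116% of 17212 features, and 2 had an unadjusted p under 0.05, 5.56% against 3.18%. Both were higher in females, against 1.54% of features, and 0 were lower, against 1.64%. The female minus male difference was below 0 for 14 of 36 genes, or 38.9%, against 50.1% of features. The sexes did not overlap for 3 genes higher in females, 8.33% against 4.74% of features, and for 1 lower, 2.78% against 4.85%.

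The smallest p was that of liver glycogen phosphorylase. Pygl stood at -0.03, -0.05 and 0.11 in females and at -0.26, -0.51 and -0.38 in males, a difference of 0.39 (adjusted p = 0.998). The sexes did not overlap. Tkt stood at 0.03, 0.06 and 0.15 in females and at -0.80, -0.40 and -0.08 in males, a difference of 0.51 (adjusted p = 0.998). Pgm2, a phosphoglucomutase, went the other way, with -0.42, -0.27 and -0.02 in females and 0.38, 0.05 and 0.06 in males, a difference of -0.40 (adjusted p = 0.998). With p-values adjusted over all features, none of the 3 passed.

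Neighbouring pathways were read for the same animals, with adult means in the deposited direction only. Of 23 genes of pyruvate entry and the citric acid cycle, 18 had adult means below 0, against 48.1% of features, with a median of -0.21. Fetal means were below 0 for 7, against 49% of features, with a median of 0.10. The adult minus fetal difference was below 0 for 19 of 23, against 52.3% of features, with a median of -0.29, and 0 passed in any comparison. The cytosolic malate dehydrogenase (Mdh1) averaged -0.51 ± 0.50 in adults (SD, n = 6, adjusted p = 0.639), and ATP citrate lyase (Acly), which makes cytosolic acetyl-CoA, 0.39 ± 0.21 in embryos, above 0 in all 6 (SD, adjusted p = 0.0914).

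Insulin and glucagon signalling had 21 genes tested, 12 below 0 in adults and 9 in embryos, and 0 passed. The kinase gene Akt1, which relays the insulin signal, averaged -0.44 ± 0.28 in adults, below 0 in all 6 (SD, adjusted p = 0.639), and the glucagon receptor gene Gcgr 0.37 ± 0.20 in embryos, above 0 in all 6 (SD, adjusted p = 0.0962). Among transcription factors of hepatic glucose metabolism, 8 of 14 were below 0 in adults and 8 of 12 in embryos. Hnf4a, which the hepatocyte list also holds, averaged -0.29 ± 0.13 in adults and Cebpa -0.67 ± 0.50 in embryos (SD, n = 6 each, adjusted p = 0.639 and 0.110), each below 0 in all 6 animals.

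The smaller lists gave no call either. Further glycolysis and fructose genes were below 0 for 6 of 9 in adults and 4 of 9 in embryos, and their smallest p at both ages was that of Tkfc, a triokinase, at -0.20 ± 0.24 and 0.30 ± 0.34 (SD, n = 6 each). Further glycogen genes were below 0 for 5 of 10 and 3 of 9, led by Ppp1r3c, a glycogen-targeting phosphatase subunit, at 0.20 ± 0.26 in adults and 0.32 ± 0.34 in embryos. Galactose and nucleotide sugar genes were below 0 for 2 of 8 at each age, led by Gfpt1 at 0.35 ± 0.74 in adults and by Galm at -0.31 ± 0.23 in embryos. Further pentose phosphate genes were below 0 for 1 of 5 and 0 of 5, led by Prps2 at 0.16 ± 0.10 in adults and Prps1 at 0.22 ± 0.17 in embryos.

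Markers of the remaining cell types in adults were below 0 for 5 of 6 erythroid, 5 of 9 granulocyte, 6 of 11 skeletal muscle, 5 of 7 exocrine pancreas and 2 of 5 cholangiocyte genes. Their smallest p values belonged to Hba-a1 at -0.37 ± 0.45, Prtn3 at 0.56 ± 0.49, Myl1 at -0.28 ± 0.26, Cela2a at -0.22 ± 0.33 and Sox9 at 0.21 ± 0.18 (SD, n = 6 each), and 0 passed. In embryos, granulocyte and cholangiocyte markers were below 0 for 7 of 9 and 4 of 5, and 0 of them passed. The smallest p values there belonged to Serpina1b among hepatocyte markers, at 0.70 ± 0.24 (adjusted p = 0.0504), Slc4a1 at -0.35 ± 0.25, Lcn2 at -0.36 ± 0.18, Tnnc2 at 0.17 ± 0.15 and Cftr at -0.42 ± 0.32 (SD, n = 6 each). Their part in the glucose genes' values was not tested.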

How the data were processed

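Liver RNA of 6 adult and 6 fetal Afp mutants was read on 17 arrays against wild-type pools. The values are log2 ratios of the channels as deposited by the authors in 1 table. Base 2 is an inference from the size of the largest values. How the images were read, corrected and normalized is not stated in these sources. Per the labels' protocols, RNA was labelled indirectly with Cy3 and Cy5. Array number limits the precision.

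Probes were named from the platform's annotation, and promoters came from RefSeq (GRCm38.p6). No protein sequence was used here. The fetal value of a probe was read 11 rows further down, where fetal values correlated best with the adult dye profile (0.369, against 0.0212 as deposited). Probes after 20000 stayed unnamed in embryos. Arrays with the mutant in Cy3 were left as deposited, as already turned. This direction is likely and not stated: opposite-orientation arrays correlated negatively for the same animal (median -0.287) and for different animals (-0.265), and values beyond 10 in size were all negative there and all positive elsewhere.

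Arrays of an animal were averaged, then probes of a gene. Log ratios were tested against 0, and between groups, with limma 3.58.1 (R 4.3.3, lmFit and eBayes) on all features with a value in 4 of 6 animals, or, for the sexes, in 2 of each and 4 in all, with Benjamini-Hochberg adjustment over all features. Scripts were tested on simulated data. The arrays' shared replicate numbers 1, 3 and 5 did not pair the samples (correlations of deviations 0.07, -0.04 and 0.07). Named genes were those passing in any comparison, the 3 smallest p per pathway and age, the 3 smallest p by age difference and by sex, and from each neighbouring or marker list those passing or else the smallest p per age. Members and lists were chosen with earlier results of these data known. Alternatives covered row naming, dye orientation, centring, quantile normalization, extreme values, probes, filters, variance estimation and left-out animals.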

Additional observations from a re-analysis of the deposited data

Results flagged for a closer look

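Of 53 groups of animals tested for a value standing apart by Dixon's criterion, 2 were picked out, and chance gives about 1 in 20. Pck2 in adults stood at 0.772 in animal 5, against -0.107 to 0.205 in the other 5. Animal 5 had only an array with the mutant in Cy5, and on such arrays the other animals read 0.32 to 1.15. Dlat in embryos stood at 0.476 in embryo 1, against -0.003 to 0.152 in the rest. It came from 1 of the 2 Dlat probes, at 0.90, with the other at 0.06. No cause was tested.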

How the results depend on the processing

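No glucose gene passed under most alternatives, and 135 of 146 recomputed counts and medians kept to within 1.5 times or the spread between animals. The adult count was 2 of 38 with the Cy3 arrays turned in sign (Pcx and Pck2), where 1760 features passed in all. It was 4 of 37 with Cy5 arrays alone (Pcx, Pck2, Pdha1 and Pkm), where 1106 features passed and the glucose genes' median was -0.22. The fetal count was 14 of 36 with the adult dye profile subtracted, where 4986 features passed in all. That test leaves out the profile's own error, and in it Pcx, Pck2 and Pgm2 reversed, to -0.46, -0.65 and 0.47. For adult minus fetal the count was 6 of 37 and the median -0.18 with fetal rows named as deposited, where 1579 features passed. The count was 1 of 35 with quantile normalization (Pck2), where 332 features passed. The median was -0.091 with the offset applied to all probes, an alternative chosen after seeing the data, and -0.091 with values beyond 10 left out.

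Leaving out 1 animal at a time gave 0 to 3 genes and medians of -0.127 to 0.0065 for adult minus fetal. The count of 3 came without adult 1, where 1224 features passed in all, and the median of -0.127 without adult 4. In the other comparisons the count stayed at 0, with medians of -0.15 to -0.05 in adults, -0.02 to 0.04 in embryos and 0.05 to 0.10 for female minus male. A fit with a replicate block over the arrays sharing a number gave 0 genes and a median of -0.00, and so did the same arrays without the block. Among single genes, 1640 values kept their direction and their side of the threshold or moved by less than the spread between animals, 48 moved, 16 came past the threshold and 3 reversed. The cause was not tested beyond what each alternative changes. A ratio of 2 channels without spot intensities leaves the signal over background unknown.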
